A study of Mus musculus with 9 samples.

Results

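Asporin (ASPN), a small leucine-rich proteoglycan of the stroma that belongs to the decorin family, was added to MyC-CaP cells, and the mRNAs of the bone morphogenetic protein (BMP) pathway and of the ID genes were followed over 24 hours. 10 genes were listed: the ID genes Id1, Id2, Id3 and Id4, the ligands Bmp2 and Bmp4, the receptors Bmpr1a and Bmpr2, the inhibitory SMAD gene Smad6 and the signal-carrying SMAD gene Smad1. They were chosen by symbol from the gene name column of the count table, which has 15384 genes. Of the 10 listed genes, 6 had counts: Id1, Id2, Id3, Bmpr1a, Bmpr2 and Smad6. The other 4, Id4, Bmp2, Bmp4 and Smad1, were not analysed here.

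BMP ligands bind a complex of type I and type II receptor kinases, and the type I receptor phosphorylates SMAD1, SMAD5 and SMAD9, which enter the nucleus with SMAD4. The ID genes and Smad6 are classical targets of these SMADs: SMAD6 blocks the pathway at the receptors in a feedback loop, and ID proteins pair with E proteins (Tcf3, Tcf4, Tcf12) and keep them from binding DNA. ID genes are also controlled by growth factor and serum signals, and in epithelial cells they are known for holding back differentiation and for their expression in dividing cells.

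MyC-CaP is a cell line grown from a prostate carcinoma of a mouse that carries a MYC transgene, so all 9 libraries come from 1 line. Cells of every group were starved for 6 to 12 hours without serum and calcium, and 3 libraries each were made at 0 hours, at 12 hours and at 24 hours with recombinant mouse ASPN at 100 ng/mL; the labels call the 3 biological replicates. The 0 hour libraries carry the label of the treated cells as well and stand for the start of the treatment. With no cells kept for 12 or 24 hours without ASPN, the effect of ASPN and that of the hours after starvation cannot be told apart. The comparisons share libraries, since both later times were set against the same 0 hour samples, and 24 hours was also set against 12 hours.

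The libraries held 41881191 to 52993821 counted reads. Levels are given as CPM, a gene's counts set to a common library size, scaled by TMM factors, which were between 1.037 and 1.068 at the start, between 1.038 and 1.049 at 12 hours and between 0.8993 and 0.9141 at 24 hours; the 24 hour libraries thus stood apart in composition. A gene was called when it changed at least 1.5-fold with an adjusted p, by the quasi-likelihood test of edgeR, of at most 0.05. Of the 6 epithelial markers reported, 3 reached 50 counts, the keratin genes Krt8 and Krt19 and Myc, which the list holds for this line and which marks no cell type, whereas Epcam and Cdh1 stayed at 10 counts or fewer in every library and Krt18 at 2 to 22. The summed level of these 6 genes was 187 to 212 CPM at 0 hours, 209.6 to 224 CPM at 12 hours and 202 to 229.7 CPM at 24 hours, a sum over genes that moved in opposite directions. At 24 hours against 0 hours Krt19 was called higher (89.4 to 138 CPM, log2 fold change 0.64, adjusted p = 1.3e-05; 0.42 with total counts and 0.57 without the third 0 hour library, under 1.5-fold), Krt8 had 0.58 (25.5 to 38.0 CPM, adjusted p = 3.6e-05), just short of a call that DESeq2 made, and Myc was called lower (81.1 to 41.1 CPM, -0.98, adjusted p = 7.4e-10). Of 5 measured fibroblast markers, Col1a1, Pdgfrb and Acta2 stayed at 10 counts or fewer, and the sum, nearly all Pdgfra, was 13 to 14.1, 12.2 to 12.6 and 9.16 to 10.3 CPM at the 3 times. Endothelial markers summed to at most 0.183 CPM and leukocyte markers to at most 0.794 CPM. The part of these shifts in the results that follow was not tested. In bulk RNA, fewer cells of a type and less RNA per cell cannot be told apart. Aspn mRNA itself had 0 to 9 counts per library.

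The 3 measured ID genes moved in different directions: at 24 hours Id1 and Id3 were higher than at the start and Id2 was lower. Smad6 was lower as well, whereas the receptor genes Bmpr1a and Bmpr2 were not called in any comparison. At 24 hours against 0 hours, 4 of the 6 measured genes were called, 2 higher and 2 lower, or 3 of 5 without Id3, against 28.8% of the 11444 genes tested, of which 12.0% were called higher and 16.8% lower. Relative to 12 hours, 3 of 6 were called, Id1 and Id3 higher and Id2 lower, or 2 of 5 without Id3, against 25.7% of 11394 genes, 10.4% higher and 15.3% lower. Id3 is also left out of these counts because it passed the filter of the main analysis only through its high 24 hour libraries. Scaling by total counts in place of TMM shifted the median log2 fold change of all genes from -0.02 to -0.24 in the first of these comparisons and from 0.00 to -0.22 in the second. It turned the split over all genes at 24 hours from 1374 higher and 1924 lower into 698 and 3008, while a correction for gene length and GC content gave 1528 and 1503. Against 12 hours, the split of 1184 and 1740 became 484 and 2830 with total counts, and 1357 and 1295 with the correction.

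At 12 hours against 0 hours, none of the 5 tested members was called by edgeR, and none of 6 by DESeq2. At an unadjusted p under 0.05 there were 2 of 5, Id2 and Smad6, both lower and both also within the adjusted threshold, which 10.3% of all tested genes passed with no fold minimum and 3.47% passed as lower. Over all 11410 genes tested, 1.60% were called, 1.5% higher and 0.0964% lower. Id3 did not pass the filter on low counts used with edgeR in this comparison and is among the 6 genes fitted by DESeq2.

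**Figure D1:**
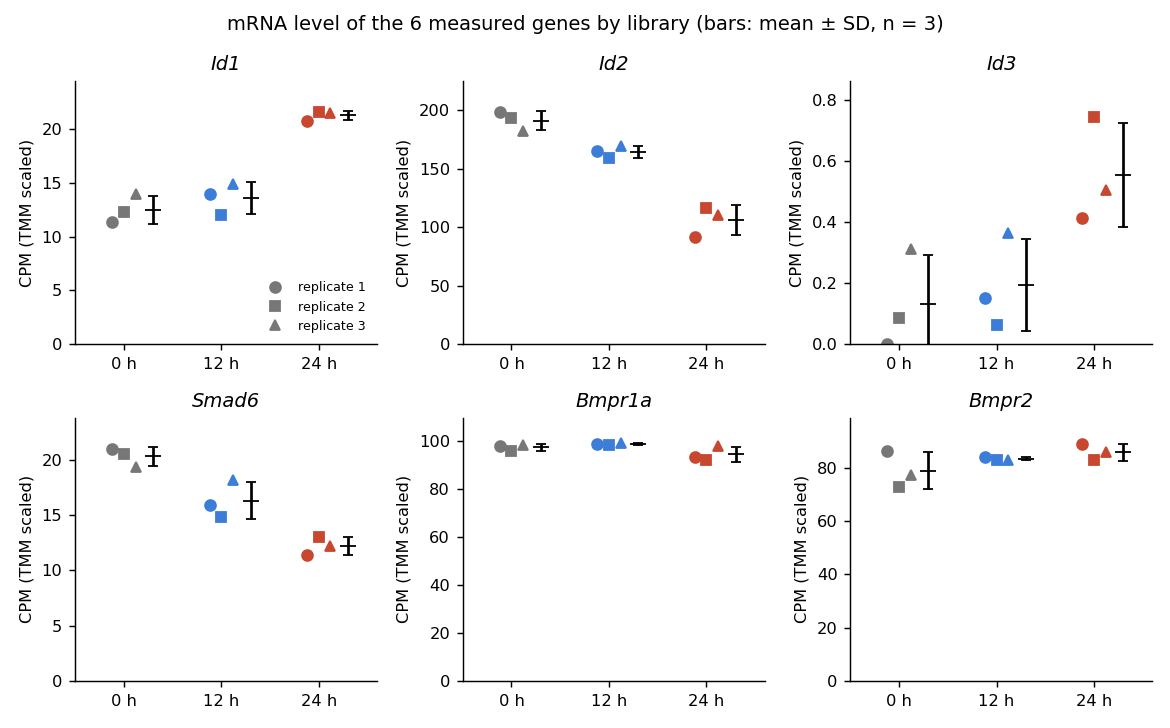
mRNA level in CPM (y axis, TMM scaled, linear and starting at 0) of the 6 measured genes at 0, 12 and 24 hours (x axis), with 1 symbol per library, shaped by replicate number, and bars for the mean ± SD of 3 libraries; the lower end of the 0 hour bar of Id3 lies below the axis. Id1 and Id3 are highest and Id2 and Smad6 lowest in the 24 hour libraries, while Bmpr1a stays between 92.1 and 99.3 CPM.

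Id1 (ENSMUSG00000042745.9), a dominant-negative helix-loop-helix gene and among the best known BMP targets, lies on the plus strand at chr2:152736251-152737410 of GRCm38. Its level was 11.4, 12.3 and 14.0 CPM in the 0 hour libraries, 14.0, 12.0 and 14.9 CPM in the 12 hour libraries, and 20.8, 21.6 and 21.5 CPM in the 24 hour libraries. The 0 and 12 hour values overlapped, and all 3 values at 24 hours lay above every earlier one. The mean rose from 12.5 ± 1.3 (SD, n = 3) to 21.3 ± 0.43 CPM, a 1.71-fold increase (log2 fold change 0.77, SE 0.08, adjusted p = 1.6e-06). Against 12 hours the log2 fold change was 0.67 (SE 0.08, adjusted p = 4.1e-06). At 12 hours against 0 hours it was 0.12 (SE 0.09, adjusted p = 0.51). The increase was under 1.5-fold with total counts, at 0.55 on the log2 scale against 0 hours and 0.45 against 12 hours. Against 12 hours it was also under 1.5-fold with the length and GC correction, at 0.49, and without the second 12 hour library, at 0.58.

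Id2 (ENSMUSG00000020644.9), the ID gene also known for binding retinoblastoma proteins, lies on the minus strand at chr12:25093799-25097140. It had 198, 193 and 182 CPM at 0 hours, 165, 159 and 169 CPM at 12 hours, and 91.3, 116 and 110.3 CPM at 24 hours. The 3 groups did not overlap, and the first 24 hour library was the lowest. At 12 hours the decrease was small (log2 fold change -0.21, SE 0.04, adjusted p = 8.8e-04) and did not reach 1.5-fold. At 24 hours Id2 was 1.79-fold lower than at the start (log2 fold change -0.84, SE 0.07, adjusted p = 1.9e-07). Against 12 hours the log2 fold change was -0.61 (SE 0.07, adjusted p = 2.4e-06), and it was -0.52, under 1.5-fold, without the first 24 hour library.

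Id3 (ENSMUSG00000007872.3), on the plus strand at chr4:136143497-136145755, was near the limit of detection. Its counts were 0, 4 and 17 at 0 hours, 7, 3 and 16 at 12 hours and 17, 36 and 24 at 24 hours, where a floor of 3 counts is 0.0566 to 0.0716 CPM. In scaled values this was 0, 0.0858 and 0.312 CPM at 0 hours, 0.153, 0.0646 and 0.366 CPM at 12 hours, and 0.415, 0.746 and 0.506 CPM at 24 hours. The 24 hour libraries were above the others, but the third 0 hour library and the first 24 hour library had the same 17 counts. Id3 passed the filter on low counts through its 24 hour libraries. In the main edgeR analysis it was thus tested only in the 2 comparisons in which it was high in one group. The log2 fold change was 1.99 (SE 0.64, adjusted p = 0.013) against 0 hours and 1.55 (SE 0.50, adjusted p = 0.014) against 12 hours. The size against 0 hours moved with 1 library: without the third 0 hour library it was 3.66, and with each library left out in turn it was 1.46 to 3.66, called each time. Against 12 hours the adjusted p was 0.059, 0.070 and 0.054 without the first 12 hour, second 12 hour and second 24 hour library.

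Levels of different genes were compared per kilobase of exon, using the union of each gene's annotated exons. At 0 hours Id2 made up 87.8% ± 1.6 (SD, n = 3) of the summed Id1, Id2 and Id3 level, Id1 12.1% ± 1.5 and Id3 0.0848% ± 0.10. At 24 hours the shares were 69.8% ± 2.2, 29.8% ± 2.3 and 0.494% ± 0.11. Id2 was thus the most abundant of the 3 measured ID mRNAs at every time, and Id1 gained in share. Id4 was not analysed. The ratio of Id2 to Id1 per kilobase, which does not depend on library scaling, was 6.21 to 8.28 at 0 hours, 5.40 to 6.31 at 12 hours and 2.08 to 2.55 at 24 hours. The 24 hour ratios lay below all others, and those at 0 and 12 hours overlapped. The summed level of Id1, Id2 and Id3 was 89.1 ± 2.0, 79.2 ± 3.4 and 62.1 ± 5.8 CPM per kilobase (SD, n = 3). Set against the summed E protein genes, the level of these 3 ID genes was 1.19 ± 0.031, 1.07 ± 0.036 and 0.914 ± 0.065 per kilobase at the 3 times. The sum over both directions of change thus fell relative to the summed partners as well. At 0 hours Tcf3 held 64.4 of the 75.1 CPM per kilobase of the E protein sum. The exon unions were 4.04 kb for Tcf3, 27.38 kb for Tcf4 and 15.53 kb for Tcf12. The size of the ratio depends on these lengths.

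**Figure D2:**
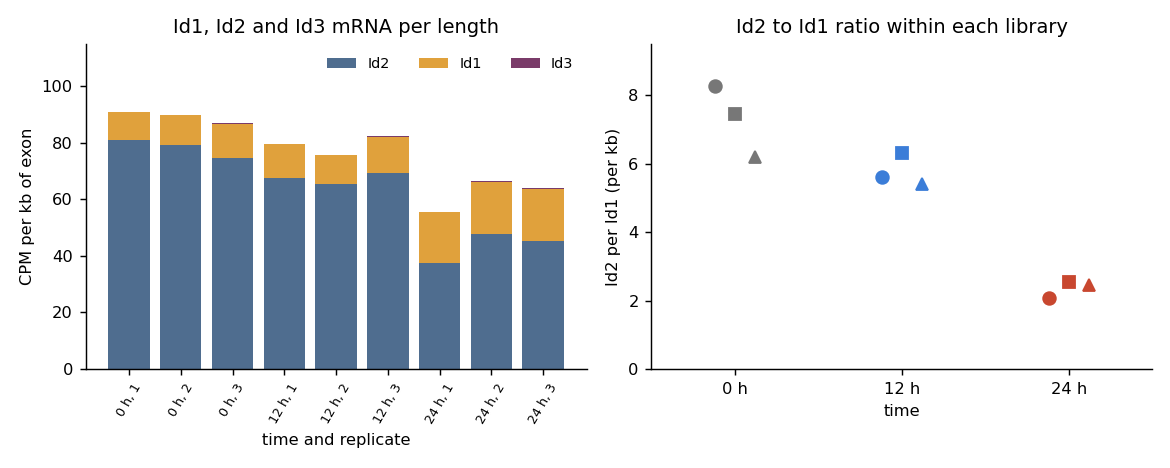
Left, CPM per kilobase of exon (y axis) of Id2, Id1 and Id3 stacked for each library (x axis, time and replicate); right, the Id2 to Id1 ratio per kilobase within each library (y axis) by time, 1 symbol per library shaped by replicate number. Id2 forms the larger part of every bar, and the ratio falls from 6.21 to 8.28 at 0 hours to 2.08 to 2.55 at 24 hours.

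The E protein genes, which encode the partners that ID proteins sequester, did not move together. At 24 hours against 0 hours Tcf12 rose (log2 fold change 0.69, SE 0.04, adjusted p = 6.3e-09) and Tcf4 fell (-0.62, SE 0.05, adjusted p = 2.9e-07), while Tcf3 had -0.21 (SE 0.04, adjusted p = 5.2e-04), and 0.06 with the length and GC correction. With total counts the Tcf12 value was 0.47, and without the second 24 hour library the Tcf4 value was -0.56, both under 1.5-fold.

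By the root mean square difference of centred log2 CPM over the 9 libraries, among 11271 genes tested in all comparisons, the genes most like Id1 were Rad54l (0.0610), Cenps (0.0625) and Mcm4 (0.0678). Those most like Id2 were Cad (0.0460), Lrp5 (0.0613) and Hyou1 (0.0626). This likeness is a description of 9 libraries that share their times. Among the genes tested at 24 hours against 0 hours, 92.6% had a lower log2 fold change than Id1 and 10.4% a lower one than Id2.

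Smad6 (ENSMUSG00000036867.7), the inhibitory SMAD that BMP signals induce as feedback, lies on the minus strand at chr9:63953076-64022059. It had 21, 20.5 and 19.3 CPM at 0 hours, 15.9, 14.8 and 18.2 CPM at 12 hours, and 11.4, 13 and 12.2 CPM at 24 hours. The 3 groups did not overlap and the level was lower at each later time. The log2 fold change was -0.31 (SE 0.07, adjusted p = 0.012) at 12 hours, under 1.5-fold. At 24 hours against 0 hours it was -0.72 (SE 0.08, adjusted p = 1.4e-06), a 1.65-fold decrease, and 13.5% of tested genes had a lower value. With the length and GC correction this decrease was -0.51, under 1.5-fold. Against 12 hours it was -0.40 (SE 0.09, adjusted p = 0.001), and with total counts -0.62, past 1.5-fold.

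The type I receptor gene Bmpr1a (ENSMUSG00000021796.15), on the minus strand at chr14:34410734-34503341, encodes a kinase that phosphorylates SMAD1, SMAD5 and SMAD9. Its level was 97.9, 95.6 and 98.5 CPM at 0 hours, 98.7, 98.5 and 99.3 CPM at 12 hours and 93.4, 92.1 and 97.9 CPM at 24 hours. These ranges overlapped between 0 and 24 hours, where the difference was -0.04 on the log2 scale (SE 0.04, adjusted p = 0.43). With total counts it was -0.26 (adjusted p = 7.9e-05), under 1.5-fold, where the median of all genes was -0.24. Between 24 and 12 hours the groups were apart, and the difference was -0.04 (SE 0.04, adjusted p = 0.33), or -0.27 with total counts. At 12 hours against 0 hours it was 0.03 (SE 0.03, adjusted p = 0.71), turning to -0.01 with the length and GC correction. Of its exon bases, 290 overlap the antisense gene Gm17110, and whether the counting used strand is not given in the sources used here.

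Bmpr2 (ENSMUSG00000067336.6), the type II receptor of BMP ligands, is on the plus strand at chr1:59763400-59879014. It had 86.3, 72.9 and 77.3 CPM at 0 hours, 83.9, 83.0 and 82.8 CPM at 12 hours and 88.9, 82.7 and 85.7 CPM at 24 hours. The spread among the 0 hour libraries covered the 12 hour values. The log2 fold change at 24 hours was 0.13 (SE 0.06, adjusted p = 0.070), and -0.09 with total counts. Against 12 hours it was 0.06 (SE 0.04, adjusted p = 0.16), and -0.16 with total counts, where the median of all genes also lay below 0.

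Ordered by level per kilobase, the members ran at 0 hours from Id2 (78.3 CPM per kilobase) through Bmpr1a (15.3), Id1 (10.8), Smad6 (6.32) and Bmpr2 (4.38) to Id3 (0.0741), and each neighbour pair was apart in all 3 libraries. At 12 hours the order was the same, but Smad6 (5.10) and Bmpr2 (4.63) overlapped. At 24 hours Id1 (18.4) stood above Bmpr1a (14.9) and Bmpr2 (4.77) above Smad6 (3.81), again without overlap. This order rests on the exon lengths used, such as 17.98 kb for Bmpr2 and 3.2 kb for Smad6. In CPM not divided by length, the 24 hour means were 94.5 for Bmpr1a, 85.7 for Bmpr2, 21.3 for Id1 and 12.2 for Smad6.

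Counted by whether the libraries of both times overlapped, 2 of the 5 tested members were apart at 12 hours against 0 hours, Id2 and Smad6, where 27.0% of all tested genes were. At 24 hours against 0 hours 4 of 6 were apart and at 24 hours against 12 hours 5 of 6, or 3 of 5 and 4 of 5 without Id3, against 73.9% and 73.9% of all genes, so these shares were close to the background. The median log2 fold change of the tested members was 0.03, 0.04 and 0.01 in the 3 comparisons, and that of all genes was -0.00, -0.02 and 0.00. Without Id3 the members' median was -0.04 in both 24 hour comparisons.

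**Figure D3:**
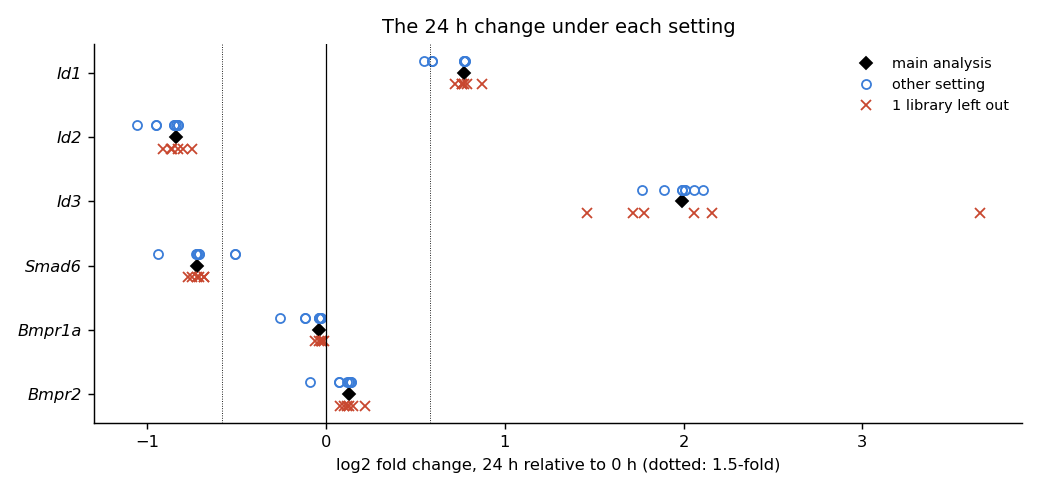
Log2 fold change at 24 hours relative to 0 hours (x axis) of the 6 measured genes (y axis) in the main analysis (diamonds), under other settings (circles) and with 1 library left out (crosses); dotted lines mark 1.5-fold. Id1, Id2, Id3 and Smad6 keep their side of 0 throughout, Bmpr2 turns to -0.09 with total counts, and Id3 spreads from 1.46 to 3.66 when 1 library is left out.

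Promoter windows of the 3 called genes that have one in the RefSeq table for GRCm38.p6 are printed so that the SMAD motifs near their starts can be read; Bmpr1a and Bmpr2 also have a window, and Id1 has no entry. Each window runs from 250 bases before to 50 after the table's gene start, 5′ to 3′ on the gene's strand. Capitals mark GGCGCC, the GC-rich motif bound by SMAD1 and SMAD5, and GTCT, the SMAD box, on either strand, so that AGAC is a GTCT on the other strand. Of the 32851 windows in the table, 11.9% hold GGCGCC and 88.0% hold GTCT. The Id2 window is at chr12:25096043-25096342, minus strand, the Id3 window at chr4:136143572-136143871, plus strand, and the Smad6 window at chr9:64022010-64022309, minus strand. The table's start of Id2 lies 1048 bases, and that of Id3 325 bases, inside the gene as counted.
Id2: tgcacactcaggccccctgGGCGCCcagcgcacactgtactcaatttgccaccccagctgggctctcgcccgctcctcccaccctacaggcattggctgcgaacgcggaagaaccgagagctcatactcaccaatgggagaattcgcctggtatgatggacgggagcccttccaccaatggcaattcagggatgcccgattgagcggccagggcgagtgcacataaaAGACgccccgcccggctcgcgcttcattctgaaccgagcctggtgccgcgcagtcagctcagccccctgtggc
Id3: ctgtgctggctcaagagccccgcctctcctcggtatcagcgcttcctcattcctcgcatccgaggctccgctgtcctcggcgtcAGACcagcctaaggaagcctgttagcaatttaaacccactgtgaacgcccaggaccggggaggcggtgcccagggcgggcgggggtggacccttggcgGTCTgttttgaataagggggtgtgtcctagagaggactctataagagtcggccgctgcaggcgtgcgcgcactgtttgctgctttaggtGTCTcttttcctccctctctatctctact
Smad6: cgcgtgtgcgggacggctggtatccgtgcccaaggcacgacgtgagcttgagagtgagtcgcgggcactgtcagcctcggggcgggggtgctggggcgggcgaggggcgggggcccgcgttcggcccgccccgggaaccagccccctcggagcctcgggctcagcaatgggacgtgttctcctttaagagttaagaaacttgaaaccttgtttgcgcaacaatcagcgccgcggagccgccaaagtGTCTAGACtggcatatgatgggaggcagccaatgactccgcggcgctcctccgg
The Id2 window holds GGCGCC at -231 and 1 GTCT at -23 relative to the start. The Id3 window holds GTCT at -166, -68 and 21 and no GGCGCC. In the Smad6 window a GTCT at -4 and, on the other strand, one at 0 lie end to end and form the palindrome GTCTAGAC, which 70 of all windows hold (0.213%). GGCGCC also lies in the windows of Bmpr1a, at -198, and Bmpr2, at -105, neither of which was called. A match of letters is a description and not a binding site.

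The other genes of the pathway came from lists of ligands, receptors, co-receptors, SMADs, antagonists, regulators, targets, ID partners and proteoglycans related to asporin. Without the 10 members these held 65 genes, of which 49 had counts. At 24 hours against 0 hours 33 were tested and 16 called, 5 higher and 11 lower, against the 28.8% of all genes given above. With total counts 15 were called, 2 higher and 13 lower. Dcn and Atoh8, described below, passed the filter through the group in which they were high, and without them 14 of 31 were called, 4 higher and 10 lower. Against 12 hours 10 of 31 were called (32.3%), 3 higher and 7 lower, near the 25.7% of all genes, 10.4% higher and 15.3% lower. With total counts 12 were called, 1 higher and 11 lower, and with the length and GC correction 4 higher and 7 lower. At 12 hours against 0 hours edgeR called 0 of 31, against 1.60% of all genes. An unadjusted p under 0.05 was found for 8 of the 31, a cut at which all genes were not counted. DESeq2, which tested 54 pathway genes with the members, called none of them. With edgeR, 7 of the 31 were within the adjusted threshold alone (22.6%), against 10.3% of all genes.

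Of 14 listed BMP ligand genes, which include Bmp2 and Bmp4 that were not analysed here, 7 had counts. Of these 7 only Bmp8a was high enough to be tested. It had 731, 740 and 827 counts at 0 hours and 444, 487 and 571 at 24 hours; the difference was -0.48 on the log2 scale (SE 0.08, adjusted p = 1.8e-04), not reaching 1.5-fold. With total counts it was -0.70 (adjusted p = 7.9e-06), which was called lower. Bmp6 had 1 to 8 counts and Bmp7 at most 2.

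Among the 6 tested receptor genes only Bmpr1b was called at 24 hours, where 28.8% of all tested genes were. Bmpr1b, a BMP type I receptor closely related to Bmpr1a, had 51.0, 45.5 and 48.4 CPM at 0 hours, 37.9, 37.8 and 34.5 CPM at 12 hours, and 16.9, 13.8 and 16.2 CPM at 24 hours. The groups did not overlap. The log2 fold change was -0.39 (SE 0.05, adjusted p = 4.1e-05) at 12 hours and -1.63 (SE 0.08, adjusted p = 8.6e-10) at 24 hours. The type I receptor Acvr1 had a value of 0.00 (SE 0.08, adjusted p = 0.99) at 24 hours, the type II receptors Acvr2a and Acvr2b had -0.16 (adjusted p = 0.034) and -0.23 (adjusted p = 0.18), and Acvrl1 had at most 1 count.

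All 4 measured co-receptor genes were called lower at 24 hours, as were 16.8% of all tested genes. Rgmb, which binds BMP ligands at the membrane, went from 14.2, 14.3 and 14.0 CPM at 0 hours to 4.40, 5.09 and 4.11 CPM at 24 hours (log2 fold change -1.63, SE 0.10, adjusted p = 7.9e-09). Its relative Rgma had -1.16 (SE 0.12, adjusted p = 1.4e-06), and Tgfbr3, which encodes betaglycan, had -1.42 (SE 0.05, adjusted p = 1.2e-10). At 12 hours their values were 0.02 for Rgmb, -0.07 for Rgma and -0.09 for Tgfbr3, none past the threshold. Eng, the endoglin gene, had 48, 66 and 72 counts at 0 hours and 33, 30 and 42 at 24 hours. Its value of -0.69 (SE 0.26, adjusted p = 0.028) was not called with DESeq2 (adjusted p = 0.063), with the length and GC correction (adjusted p = 0.11), or without the second or the third 0 hour library or the second 24 hour library (adjusted p = 0.11, 0.097 and 0.098).

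**Figure D4:**
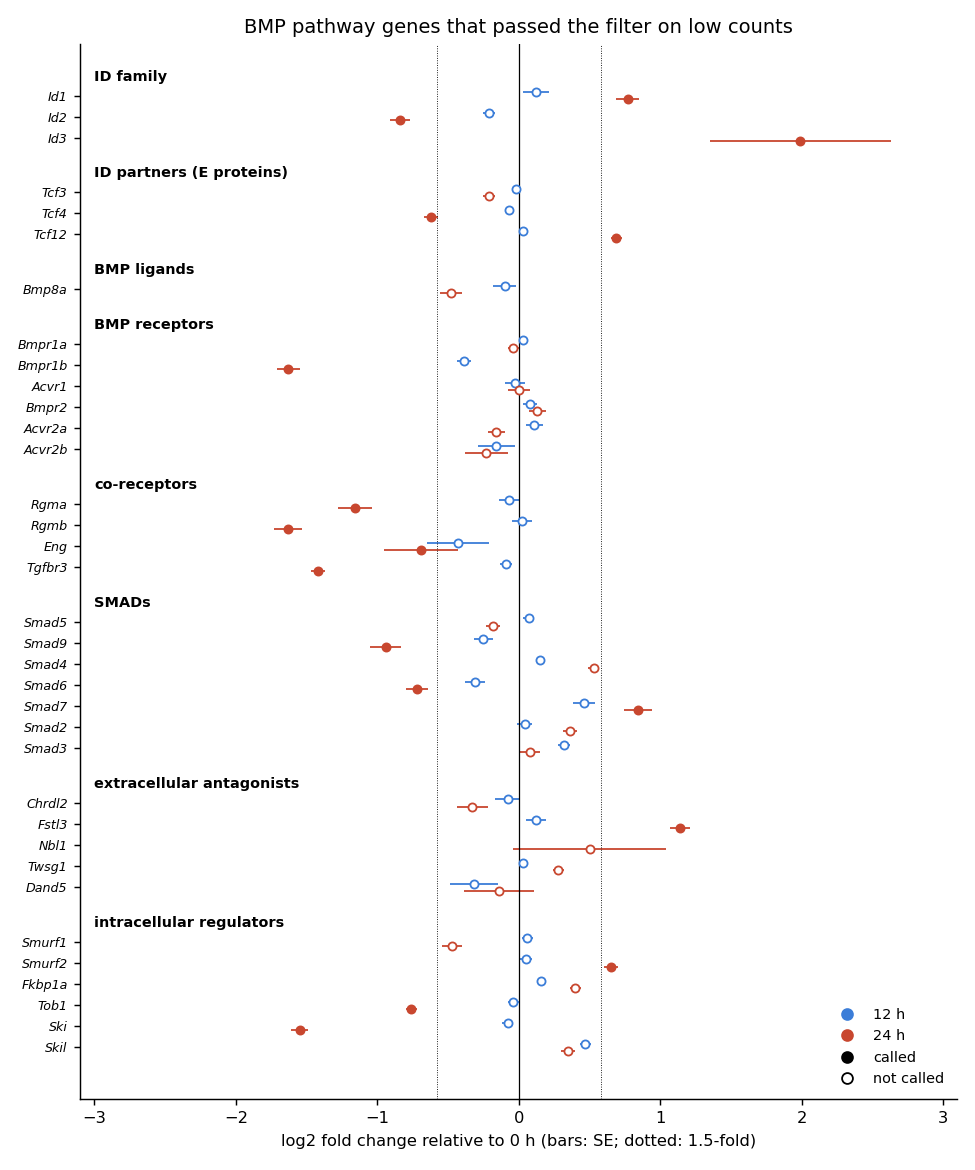
Log2 fold change relative to 0 hours (x axis, bars: SE) at 12 hours (blue) and 24 hours (red) of the listed genes that passed the filter on low counts (y axis, grouped by role; the other BMP-induced genes that are not SMADs, and Dcn, are left out); filled points were called and dotted lines mark 1.5-fold. All points at 12 hours are open, and the co-receptors lie to the left at 24 hours, from -0.69 for Eng to -1.63 for Rgmb.

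The SMAD genes moved in both directions. Smad7, the inhibitory SMAD of TGF-β as well as BMP signals, had 11.8, 11.1 and 11.9 CPM at 0 hours, 16.7, 13.8 and 17.2 CPM at 12 hours, and 18.3, 24.0 and 19.6 CPM at 24 hours. The groups did not overlap and ran opposite to Smad6, differing from the start by 0.46 on the log2 scale (SE 0.08, adjusted p = 0.0014) at 12 hours and 0.84 (SE 0.10, adjusted p = 4.0e-06). Smad9, a BMP-regulated SMAD that is itself a target, fell from 15.2, 14.1 and 15.4 CPM at 0 hours to 8.67, 6.40 and 8.12 CPM at 24 hours (log2 fold change -0.94, SE 0.11, adjusted p = 3.4e-06). Smad5, the other measured BMP-regulated SMAD, had -0.18 (SE 0.05, adjusted p = 0.0075). The shared partner Smad4 had 0.53 (SE 0.04, adjusted p = 7.5e-08), just under 1.5-fold. Of the TGF-β-regulated SMADs, Smad2 had 0.36 (SE 0.05, adjusted p = 5.6e-05) at 24 hours. Smad3 had 0.32 (SE 0.04, adjusted p = 6.3e-05) at 12 hours and 0.08 (SE 0.07, adjusted p = 0.34) at 24 hours, the latter -0.14 with total counts and 0.33 (adjusted p = 2.0e-04) with the length and GC correction.

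Of 6 tested intracellular regulators 3 were called at 24 hours, where 28.8% of all tested genes were. Ski, a repressor of SMAD-driven transcription, went from 79.0, 73.8 and 75.5 CPM at 0 hours to 25.2, 28.0 and 24.6 CPM (log2 fold change -1.55, SE 0.06, adjusted p = 1.5e-10). Tob1, an antiproliferative gene whose product restrains BMP SMADs, had -0.76 (SE 0.04, adjusted p = 5.7e-09). Smurf2, a ubiquitin ligase for SMADs and receptors, had 0.65 (SE 0.05, adjusted p = 1.2e-07), and 0.43 with total counts. These 3 genes restrain the pathway by different routes, and they did not share a direction. Skil, a relative of Ski, had 0.47 (SE 0.04, adjusted p = 1.4e-07) at 12 hours and 0.35 (SE 0.05, adjusted p = 4.4e-05) at 24 hours, both under 1.5-fold.

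Of 5 tested extracellular antagonists 1 was called at 24 hours, where 28.8% of all tested genes were. This gene, Fstl3, which binds activins and related ligands, had 18.5, 18.6 and 18 CPM at 0 hours and 35.7, 44.3 and 41.1 CPM at 24 hours (log2 fold change 1.14, SE 0.07, adjusted p = 1.5e-08). Its exons share 1157 bases with Prss57 on the opposite strand, from which its reads cannot be told apart without strand.

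Among the 6 tested genes that BMP signals are known to induce besides the ID genes, Smad7 was called higher at 24 hours, and Smad6, Smad9, Msx2 and Atoh8 were called lower, against 12.0% and 16.8% of all tested genes. Without Atoh8, 1 of 5 was called higher and 3 lower. Msx2, a homeobox gene, had 2.97 ± 0.70 CPM at 0 hours and 1.88 ± 0.18 CPM at 24 hours (SD, n = 3; log2 fold change -0.64, SE 0.19, adjusted p = 0.0088), and it was not called without the first 0 hour library (-0.43, adjusted p = 0.065). Atoh8, a basic helix-loop-helix gene, had 10, 10 and 13 counts at 0 hours and 2, 0 and 4 counts at 24 hours. It passed the filter through its earlier libraries, and the log2 difference of -2.26 (SE 0.74, adjusted p = 0.015) was not called without the second 24 hour library (adjusted p = 0.056).

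Dcn, the decorin gene and a relative of Aspn, had 11, 7 and 9 counts at 0 hours and 19, 29 and 9 at 24 hours. It passed the filter through its 24 hour libraries. The groups overlapped, and the log2 difference of 1.20 (SE 0.49, adjusted p = 0.044) was not called with DESeq2 (adjusted p = 0.082) or without any 1 of 5 libraries (adjusted p up to 0.22), all but the third 24 hour library.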

How the data were processed

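RNA from 9 MyC-CaP libraries was sequenced by the authors, who per the study's methods trimmed reads with cutadapt, aligned them with STAR to GRCm38.p6 and counted reads per GENCODE M24 gene with featureCounts. The deposited values are raw counts per gene, 1 column per library, and no further per-sample column was left over. The depth was 41881191 to 52993821 counts, and a floor of 3 counts covers counting error only. Columns were matched to samples by name.

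For each pair of times, the 6 libraries were fitted with edgeR 4.0.16 (limma 3.58.1, R 4.3.3) after filterByExpr and TMM scaling, using the quasi-likelihood test, with Benjamini-Hochberg adjustment over all tested genes. A gene was called at an adjusted p of at most 0.05 and a fold change of at least 1.5, the thresholds of the study's methods. The scripts were tested on simulated data. CPM are TMM scaled over 9 libraries, and log2 CPM used a prior count of 2. Exon lengths came from GENCODE M21, in which 15374 of 15384 identifiers matched (99.9%). No library was a copy of another: the chi-square per degree of freedom between libraries of one time was 3.41 to 17.5.

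The members and lists were chosen with earlier results of these data known. Named were all members, every receptor and SMAD that passed the filter, up to 4 called genes per list and comparison, Aspn, and the 3 genes most like each ID gene tested in all comparisons. Bmp6, Bmp7, Bmp8a, Acvrl1, Tcf3, Skil and Msx2, and the marker genes, were added as examples after their values were seen. Alternatives were DESeq2 1.42.0, RLE factors, total counts, all 9 libraries in one fit, no filter, the adjusted p alone, a replicate block, a length and GC correction by loess with a span of 0.3, and leaving out each library. Part of the epithelial marker list is not reported here, and the marker sums leave it out.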

Additional observations from a re-analysis of the deposited data

Results flagged for a closer look

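The results below were picked because the later step of the time course (24 hours against 12 hours) differed by itself past both thresholds of edgeR's quasi-likelihood test, so that the changes from 0 hours at 12 and at 24 hours were not alike. Both changes use the same 0 hour libraries, and the difference is tested between the 12 and 24 hour libraries alone. Of the members, Id1 differed by 0.67, Id2 by -0.61 and Id3 by 1.55 on the log2 scale, with Id3 resting on at most 36 counts. Of the other pathway genes, the log2 difference was -1.21 for Bmpr1b, -0.67 for Smad9, 0.69 for Tcf12, -1.63 for Rgmb, -1.31 for Tgfbr3, -1.06 for Rgma, 1.05 for Fstl3, -1.45 for Ski, -0.70 for Tob1 and 0.63 for Smurf2. The 24 hour libraries also had the lowest TMM factors, 0.8993 to 0.9141, whose part in these differences was not tested. Without 1 library, Id1 had 0.58 (second 12 hour library) and Id2 -0.52 (first 24 hour library), and Smad9 had -0.55 and Smurf2 0.58 (second 24 hour library), each under 1.5-fold. The adjusted p of Id3 was 0.059, 0.070 and 0.054 without the first 12 hour, the second 12 hour and the second 24 hour library. With total counts Id1, Tcf12 and Smurf2 had 0.45, 0.46 and 0.41, and with the length and GC correction Id1 had 0.49, also under 1.5-fold.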

How the results depend on the processing

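Of 136 member values under the alternatives, 125 kept their direction and side of the threshold, 6 lost the call, 1 gained it and 4 reversed, and with 1 library left out 97 of 102 were kept and 5 lost. For the 26 other pathway genes examined in this way, 578 of 608 and 435 of 456 were kept. Reversed values were -0.01 for Bmpr1a at 12 hours with the length and GC correction, with or without the replicate block; with total counts -0.09 for Bmpr2 at 24 hours and -0.16 against 12 hours, -0.14 for Smad3 at 24 hours and -0.17 for Acvr1 against 12 hours; and with the correction, with or without the block, 0.06 for Tcf3 at 24 hours and, against 12 hours, 0.08 for Tcf3, 0.03 for Smad3 and 0.08 for Acvr2b. With 1 library left out, the range was -0.07 to 0.02 for Acvr1, -0.01 to 0.06 for Rgmb and -0.30 to 0.05 for Msx2 at 12 hours, -0.02 to 0.16 for Smad3 at 24 hours, and -0.17 to 0.03 for Acvr2b against 12 hours. With the adjusted p alone and no fold minimum, 2 of 5 members and 1178 of all genes (10.3%) passed at 12 hours. Of the pathway genes with the members, 9 of 36 passed at 12 hours. At 24 hours 31 of 39 pathway genes and 8119 of all genes (70.9%) passed, and against 12 hours 28 of 37 and 8124 (71.3%). The members called against 12 hours numbered 1 to 3 when 1 library was left out, 1 of them without the second 12 hour library. Samples of one replicate number did not deviate together (correlations -0.11 to 0.06). The numbers were not taken as pairs in the main test because the study's methods name no block. With the replicate block 0, 4 and 3 members were called in the 3 comparisons, as without it, and of the pathway genes 18 in place of 20 at 24 hours, without Eng (adjusted p = 0.056) and Dcn (adjusted p = 0.071). Apart from those built into an alternative, such as fewer libraries, the causes were not tested. Depth limits Id3 and Atoh8, and 4 members had no values.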
